A study of Mus musculus with 6 samples.

Results

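The cytosolic heat shock proteins were followed in mouse lung cells labelled as type II alveolar epithelial (AT2) cells, which make lung surfactant. They were followed through 10 genes chosen by symbol from a deposited table of 52550 genes. The 10 are Hspa1a, Hspa1b and Hspa8 of the HSP70 family, Hsph1 of the HSP110 family, Hsp90aa1 and Hsp90ab1 of the HSP90 family, the J-domain genes Dnaja1, Dnajb1 and Dnajb4, and the small heat shock gene Hspb1. All 10 had a row and all 10 passed the filter on low counts. RNA sequencing covered 3 control libraries and 3 libraries labelled Grp78 knockout, from C57BL/6 mice. Every mouse carried Sftpc+/creERT2, a tamoxifen-inducible Cre at the surfactant protein C locus, and Grp78f/f, floxed alleles of the gene for the endoplasmic reticulum (ER) chaperone Grp78. The genotype label gives the controls as without tamoxifen (Tmx) and the other libraries as with it. Yet the day label, in controls too, gives 10 days after tamoxifen, so the 2 labels of the controls conflict. If only the labelled knockouts received the drug, drug and deletion cannot be told apart. The cells were CD45-negative and EPCAM-positive by magnetic sorting of dispase-digested lung. Cre at this locus acts in cells that express surfactant protein C, and the sort took epithelial cells more broadly. No age of the mice is stated in these sources. Whether replicates came from different animals is not stated either, and p-values reflect only library-to-library spread, possibly technical.

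Cytosolic heat shock proteins are chaperones that bind unfolded or newly made proteins. HSP70 proteins hold and release clients in an ATP-driven cycle that J-domain proteins start and HSP110 proteins reset, and HSP90 takes over clients at a late stage of folding. Heat and other protein-damaging stress release heat shock factor 1 (HSF1), which forms trimers, binds inverted repeats of the letters GAA (heat shock elements) and drives transcription of these genes. Hspa8 and Hsp90ab1 are known as the constitutive members, and Hspa1a and Hspa1b as the strongly inducible ones. The ER has its own relatives, Hspa5 (Grp78) and Hsp90b1, which answer to the unfolded protein response instead.

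All 10 genes were lower in the 3 labelled knockouts than in controls 1 and 2, and control 3 was as low as the labelled knockouts or lower. The 10 genes summed to 11120 and 11440 CPM (counts scaled to library size and TMM factors) in controls 1 and 2. Control 3 held 4091 CPM, and labelled knockouts 1, 2 and 3 held 5414, 5372 and 4301 CPM. With all 6 libraries, Hsph1, Dnaja1 and Dnajb4 were called lower by edgeR (adjusted p under 0.05) and none higher. Over all 18849 genes tested, 18.8% were called lower and 18% higher, so 3 of 10 is not far from the background. No member was called higher by DESeq2 or limma-voom, and 0 were higher at an unadjusted p under 0.05, where 7 were lower (24.2% of all genes). Log2 folds of the 10 ran from -3.08 to -0.57, with a median of -1.14 against 0.02 over all genes. In RNA from many cells, fewer cells of a type and less RNA per cell cannot be told apart.

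Without control 3 all 10 members were called lower (16.2% of all genes were called lower in that fit) and the median log2 fold was -1.56. The labels give no reason to leave that library out, and it was singled out from its values. Over all genes, controls 1 and 2 were the closest controls, and labelled knockout 3 also stood apart from labelled knockouts 1 and 2. The fit without control 3 takes its control spread from controls 1 and 2 alone. In none of the 10 genes were the 3 controls separate from the 3 labelled knockouts, whereas the groups were separate for 51.6% of all genes tested. In all 10 genes every labelled knockout lay below controls 1 and 2, as it did for 31.8% of all genes tested. Control 3 lay below every labelled knockout in 5 members (39.2% of all genes) and within their range in the other 5 (22.6%). It was at least 2-fold below the mean of controls 1 and 2 in 8 of 10 members, against 3.17% of all genes tested. The mean of the labelled knockouts was at least 2-fold below it in 6 members, against 5.38%.

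The number of members called lower moved with the fit, and so did the share of all genes called lower. It was 3 with the replicate number as a block (22.8% of all genes), 7 with DESeq2 (20.5%) and 2 with limma-voom (18.8%). Scaling by library size gave 1 (7.13%), upper-quartile scaling 2 (15%), RLE scaling 2 (17.8%) and no filter on low counts 1 (11.2%). Without both libraries numbered 3 it was 10 (27.7%). It was 0 without control 1 (15.2%), without control 2 (10.4%), without labelled knockout 1 (10.4%) and without labelled knockout 2 (9.73%), and 1 without labelled knockout 3 (22.4%).

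**Figure D1:**
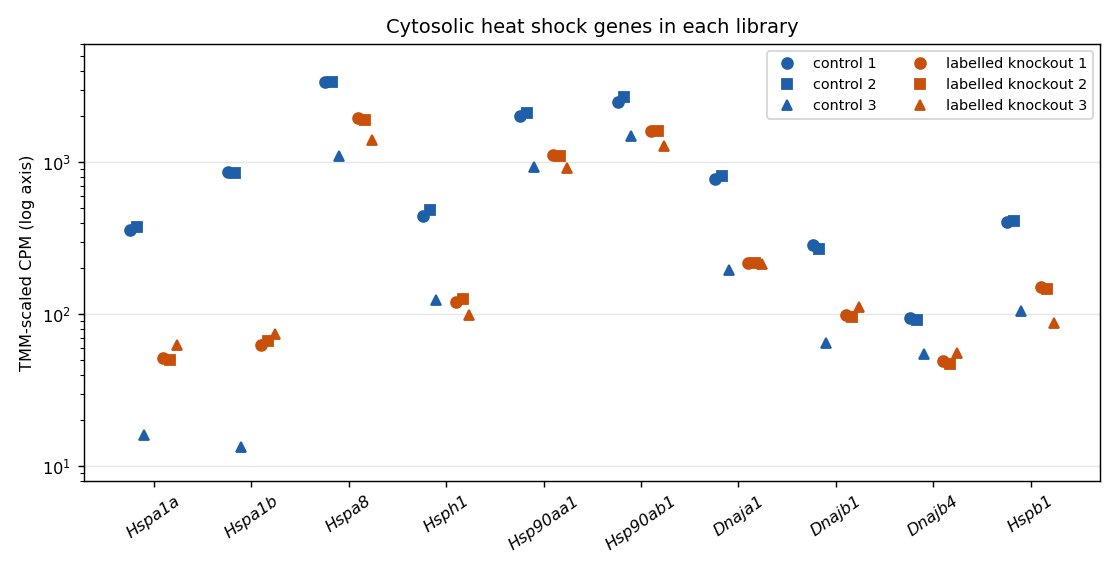
TMM-scaled CPM (log axis) of the 10 cytosolic heat shock genes in each library; 1 point is 1 library, blue for control, orange for labelled knockout, with the shape giving the replicate number. Control 3 (blue triangles) sits apart from controls 1 and 2 in every gene, by 64.3-fold for Hspa1b and 1.71-fold for Dnajb4.

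Hspa1a and Hspa1b, the stress-inducible HSP70 genes, are neighbours on the minus strand of chromosome 17 in mm10 (GENCODE M21), at 34969190 to 34972156 and 34956436 to 34959238, each a single exon. Hspa1b was at 857.8, 846.9 and 13.26 CPM in controls 1, 2 and 3, and at 62.63, 66.84 and 74.12 CPM in labelled knockouts 1, 2 and 3. Hspa1a was at 355.7, 372.4 and 15.9 CPM in the controls and at 51.81, 50.23 and 62.63 CPM in the labelled knockouts. The pattern is the same in both: controls 1 and 2 high, labelled knockouts far lower and close together, and control 3 lowest of all, so that the groups overlap. The mean of controls 1 and 2 exceeded control 3 by 64.3-fold for Hspa1b and 22.9-fold for Hspa1a, and exceeded the labelled knockouts by 12.6-fold and 6.63-fold. With 6 libraries neither was called: the log2 fold of Hspa1b was -3.08 (SE 1.17, edgeR adjusted p = 0.0781) and that of Hspa1a -2.18 (SE 0.926, edgeR adjusted p = 0.105). Without control 3 the standard error of Hspa1b was 0.115, the log2 fold -3.66 and the edgeR adjusted p 0.000386.

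The copies share sequence, which limits how far their counts can be separated. Of the 150-base windows (the labelled read length) in annotated Hspa1a transcripts, 39.7% also occur in another gene, chiefly Hspa1b, and 40.5% of Hspa1b windows occur in another gene, chiefly Hspa1a. An exon stretch of 564 bases of Hspa1a also overlaps Gm20481 on the other strand. The sum of both genes was 1214, 1219 and 29.17 CPM in the controls and 114.4, 117.1 and 136.7 CPM in the labelled knockouts. Fitted as a single row, an alternative chosen after seeing the data, the pair stood at -2.74 on the log2 scale with all libraries (SE 1.07, adjusted p from edgeR 0.084). Without control 3 it stood at -3.32 (SE 0.124, adjusted p from edgeR 0.000411). The share of Hspa1a in the pair's counts was 29.3% and 30.5% in controls 1 and 2, 54.5% in control 3 and 42.9% to 45.8% in the labelled knockouts.

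The promoters of the pair are nearly the same, and they are shown because the 2 genes had the widest swings between libraries. Both windows run from 250 bases before to 50 after the start of transcription, in RefSeq's GRCm38.p6, chr17:34972107-34972406 for Hspa1a and chr17:34959189-34959488 for Hspa1b, minus strand, written 5′ to 3′. Capitals mark matches to the heat shock element, either 2 units (GAANNTTC or TTCNNGAA) or 3 units (GAANNTTCNNGAA or its reverse complement TTCNNGAANNTTC) with at most 1 of the 9 fixed letters different. Overlapping matches are merged.
Hspa1a: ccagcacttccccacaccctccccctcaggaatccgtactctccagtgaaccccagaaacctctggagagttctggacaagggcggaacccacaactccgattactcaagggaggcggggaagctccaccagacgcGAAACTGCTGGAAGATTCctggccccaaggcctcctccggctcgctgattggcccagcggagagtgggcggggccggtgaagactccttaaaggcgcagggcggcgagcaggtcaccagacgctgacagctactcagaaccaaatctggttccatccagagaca
Hspa1b: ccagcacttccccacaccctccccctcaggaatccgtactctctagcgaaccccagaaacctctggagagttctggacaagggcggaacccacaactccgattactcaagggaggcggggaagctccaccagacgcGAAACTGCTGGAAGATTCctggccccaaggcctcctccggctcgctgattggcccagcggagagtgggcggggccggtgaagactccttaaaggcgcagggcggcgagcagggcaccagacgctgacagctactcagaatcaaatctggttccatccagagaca
The 300 bases differ at 4 positions, C44T, T47C, T249G and C276T, with the Hspa1a base first and positions counted from 1 at the 5′ end. None of them falls in the capitals, which begin 114 bases before the start site.

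Hspa8, the constitutive HSP70 gene (chromosome 9, 40800984 to 40810087, plus strand), was at 3397 and 3381 CPM in controls 1 and 2 and at 1092 CPM in control 3. The labelled knockouts held 1956, 1908 and 1407 CPM, between control 3 and the other controls. Its log2 fold was -0.58 (SE 0.401, edgeR adjusted p = 0.291), and -0.95 without control 3 (SE 0.182, edgeR adjusted p = 0.0129). Of its 150-base windows, 22.8% occur in transcripts of pseudogenes such as Gm15459. Its exons, when merged over every annotated isoform, overlap 3 small nucleolar RNA genes, and whether these isoforms were used was not tested. The sum of Hspa1a and Hspa1b came to 35.7% and 36.1% of the Hspa8 level in controls 1 and 2, to 2.67% in control 3 and to 5.85%, 6.14% and 9.72% in labelled knockouts 1, 2 and 3, on the CPM scale. Inducible HSP70 transcripts were therefore scarcer relative to the constitutive one in those 4 libraries.

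Hsph1, which encodes the HSP110 protein that resets HSP70 by exchanging its nucleotide, lies on chromosome 5 (149614287 to 149636376, minus strand). It was at 442, 488.2 and 124.7 CPM in controls 1, 2 and 3 and at 120.8, 124.9 and 98.39 CPM in labelled knockouts 1, 2 and 3. Control 3 fell among the labelled knockouts, and the mean of controls 1 and 2 was 3.73-fold above control 3. Its change was -1.62 on the log2 scale (SE 0.46, adjusted p from edgeR 0.0319), and the gene was also called with the replicate number as a block (edgeR adjusted p = 0.0262). Its promoter is shown because it was the only 1 of the 7 members with a promoter sequence that held the full element of 3 units. The window is chr5:149636266-149636565, minus strand, from the same source and marked in the same way.
Hsph1: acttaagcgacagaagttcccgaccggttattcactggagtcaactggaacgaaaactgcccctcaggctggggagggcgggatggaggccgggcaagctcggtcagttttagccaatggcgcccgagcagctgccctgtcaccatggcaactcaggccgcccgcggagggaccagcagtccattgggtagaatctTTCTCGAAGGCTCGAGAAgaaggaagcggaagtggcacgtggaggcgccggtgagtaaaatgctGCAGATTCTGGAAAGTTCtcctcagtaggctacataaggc
The full match TTCTGGAAAGTTC starts 16 bases after the start site of this window. A full match occurs in 0.603% of 32851 RefSeq promoter windows of this length.

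Promoter sequence was found for 7 of the 10 members, in 12 windows since some genes have several starts. Hspa8, Hsp90aa1 and Hsp90ab1 had none. Of the 12 windows, 7 held a match of 3 units with at most 1 difference, against 7.22% of all windows, and 7 held 2 units, against 15.1%. These shares describe letters and not binding. The Hsph1 windows overlap each other, as do 2 of the 3 Dnaja1 windows. Those of Hspa1a and Hspa1b are 98.7% identical and hold the same matches, so the 12 windows are not independent. The best match read CTCTAGAAAATTC for Dnaja1, TTCTAGAAAGTAC for Dnajb4 and GAAGTTTCCAGAT for Hspb1. Neither Dnajb1 window held a match of 2 units or of 3 with at most 1 difference.

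The HSP90 genes moved by less than the inducible HSP70 genes. Hsp90aa1, the inducible HSP90 gene (chromosome 12, 110690605 to 110702728, minus strand), was at 2022, 2108 and 933.8 CPM in the controls and at 1110, 1101 and 911.9 CPM in the labelled knockouts. Hsp90ab1, the constitutive HSP90 gene (chromosome 17, 45567775 to 45573271, minus strand), was at 2485, 2668 and 1492 CPM in the controls and at 1594, 1613 and 1280 CPM in the labelled knockouts. In both genes control 3 lay within the range of the labelled knockouts, which lay below controls 1 and 2. The log2 folds were -0.70 (SE 0.294, edgeR adjusted p = 0.0987) for Hsp90aa1 and -0.57 (SE 0.232, edgeR adjusted p = 0.0915) for Hsp90ab1. Blocking on the number brought Hsp90ab1 under the threshold (log2 fold -0.53, SE 0.127, edgeR adjusted p = 0.0237). The ratio of Hsp90aa1 to Hsp90ab1 counts was 0.814 and 0.79 in controls 1 and 2, 0.626 in control 3 and 0.682 to 0.713 in the labelled knockouts. Of the Hsp90aa1 windows of 150 bases, 28.5% occur in other genes such as the pseudogene Gm12346, and of the Hsp90ab1 windows 0% do.

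Of the J-domain genes, whose proteins hand clients to HSP70, Dnaja1 and Dnajb4 were called lower and Dnajb1 was not. Dnaja1 (chromosome 4, 40722150 to 40737149, plus strand) was at 778.2, 806.9 and 196.4 CPM in the controls and at 217.8, 218.1 and 213 CPM in the labelled knockouts, with control 3 lowest. Its log2 fold was -1.46 (SE 0.474, edgeR adjusted p = 0.0487), and the replicate block ended the call (edgeR adjusted p = 0.0736). Its exons overlap Smu1 by 608 bases and Gm6297 by 249 bases on the other strand, and Mir207 by 74 bases on the same strand. The labels do not say whether strand was counted. Of the Dnaja1 windows of 150 bases, 7.16% occur in other genes such as Gm15542. Dnajb4 (chromosome 3, 152178511 to 152210302, minus strand) had the smallest gap between controls, at 94.84, 91.31 and 54.55 CPM, and 48.9, 46.7 and 55.52 CPM in the labelled knockouts. Its log2 fold was -0.67 (SE 0.202, edgeR adjusted p = 0.0352), and it too lost its call with the block (edgeR adjusted p = 0.063). Dnajb1, the stress-inducible partner of Hspa1a and Hspa1b (chromosome 8, 83608193 to 83612653, plus strand), was at 286.1, 269.3 and 64.91 CPM in the controls and 98.98, 95.39 and 111 CPM in the labelled knockouts. Here control 3 lay clearly below every labelled knockout, and the gene was not called (log2 fold -1.02, SE 0.486, edgeR adjusted p = 0.139).

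Hspb1, which encodes the small heat shock protein HSP25 that keeps unfolded proteins from clumping (chromosome 5, 135887919 to 135889563, plus strand), was at 405.6, 412.9 and 104.1 CPM in the controls. The labelled knockouts held 152, 147.5 and 87.08 CPM, and control 3 lay inside their range. Its change was -1.25 on the log2 scale (SE 0.501, adjusted p from edgeR 0.0889), and blocking on the number brought the gene under the threshold (log2 fold -1.06, SE 0.262, edgeR adjusted p = 0.0262). Of its windows, 39.1% are shared with the pseudogene Hsp25-ps1.

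**Figure D2:**
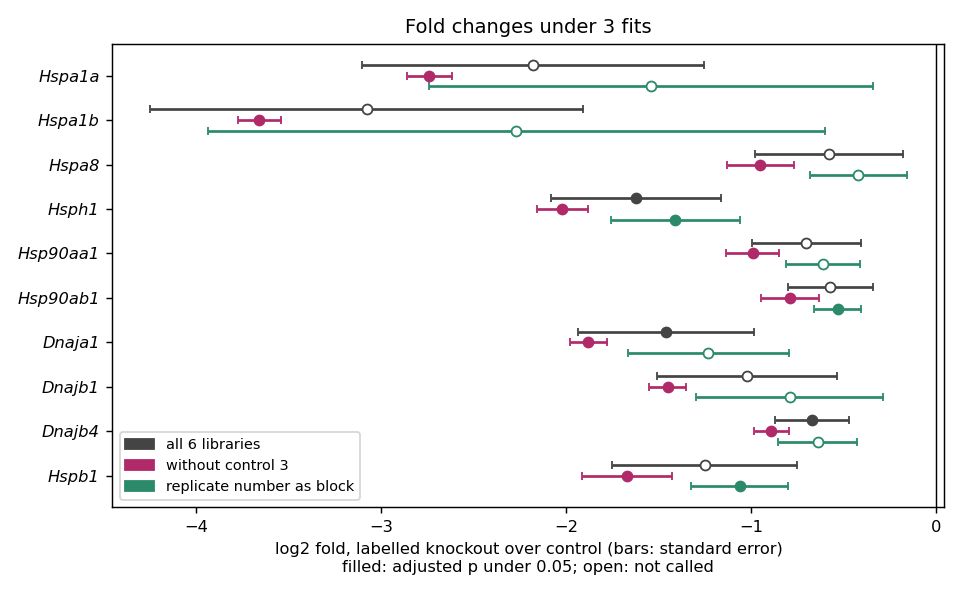
Log2 fold of labelled knockout over control (x axis, bars are the standard error) for each member in the fit of all 6 libraries, without control 3 and with the replicate number as a block; filled points passed an adjusted p of 0.05. All 10 folds are below 0 in the 3 fits, and the bar of Hspb1 without control 3 is 0.245 against 0.501 with it.

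Compared by number, pair 3 differed from pairs 1 and 2. Between the libraries numbered 1 all 10 members were lower in the labelled knockout, with a median log2 ratio of -1.48, and between those numbered 2 all 10 were lower, with a median of -1.50. Between those numbered 3 only 4 of 10 were lower, with a median of 0.08. The ratio of Hspa1b was -3.78, -3.66 and 2.48 in the 3 pairs, that of Hspa1a -2.78, -2.89 and 1.98, and that of Dnajb1 -1.53, -1.50 and 0.77. Hsph1 was lower in all 3 pairs, at -1.87, -1.97 and -0.34. Over all genes tested, 49.8%, 49.9% and 49.2% were lower in the labelled knockout in pairs 1, 2 and 3.

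Controls 1 and 2 were close to each other, and their values differed by at most 1.10-fold over the 10 members. The labelled knockouts differed among themselves by 1.02-fold (Dnaja1) to 1.75-fold (Hspb1). On log2(CPM + 0.5), Hspb1, Dnaja1, Dnajb1, Hsph1, Hspa8, Hspa1a and Hspa1b were among the 22 genes with the largest drop from controls 1 and 2 to control 3 out of 18849, with Hspa1b first at -5.95. All 10 members were among the lowest 167 genes (0.886%), 167 being the rank of Dnajb4, the last of the 10. This ranking compares 1 library with 2, has no replicate check, and is a description only, with 22 and 167 both taken from the ranks after they were seen.

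Per kilobase of merged exons, which allows levels to be set side by side between genes, Hsp90ab1 and Hspa8 led in controls 1 and 2, at 829 and 889 and at 790 and 786 CPM per kb. Next were Hsp90aa1 (514 and 536), Hspb1 (393 and 400), Hspa1b (306 and 302) and Hspa1a (120 and 126), then Dnaja1 (90.2 and 93.5), Dnajb1 (89.3 and 84.1), Hsph1 (60.8 and 67.2) and Dnajb4 (10.8 and 10.4). Hspa1b was last in control 3, at 4.73 CPM per kb, with Hspa1a at 5.36 and Dnajb4 at 6.22. In the labelled knockouts Hspa1b spanned 22.3 to 26.4 CPM per kb, overlapping Dnaja1 at 24.7 to 25.3, and Hspa1a at 16.9 to 21.1 overlapped Hsph1 at 13.5 to 17.2. Hsp90ab1 (427 to 538) and Hspa8 (327 to 455) also overlapped there. Merged exons include every annotated isoform (8629 bases for Dnaja1), and which isoforms these cells use was not tested.

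Other genes of the heat shock system were counted in the same way. Some are on more than 1 list, Fkbp4, Chordc1, Cacybp and Bag3 among them, so the counts of different lists are not independent. Of 18 further HSF1 target genes, all 18 were lower in control 3 than in controls 1 and 2 (40.2% of all genes tested were), and 8 were at least 2-fold below their mean (3.17% of all genes). Calls by edgeR with all 6 libraries were 4 lower and 1 higher, against 18.8% and 18% of all genes, so this count is near the background. Without control 3 they were 10 lower and 0 higher (1 higher at an unadjusted p under 0.05), against 16.2% and 14.1% of all genes. P4ha1, a collagen prolyl hydroxylase gene, fell in the labelled knockouts (log2 fold -1.33, edgeR adjusted p = 0.00689), as did Fkbp4, a peptidyl-prolyl isomerase of HSP90 complexes (-1.02, edgeR adjusted p = 0.00544). Ifrd1, a transcriptional co-regulator gene, rose by 0.99 (edgeR adjusted p = 0.0271). The median of the list was -0.43 with all libraries and -0.63 without control 3, against 0.02 and 0.01 over all genes.

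Of 17 HSP90 co-chaperone genes, 3 were called lower and 1 higher, near the all-gene shares of 18.8% and 18%. Without control 3, 7 were lower and 1 higher (16.2% and 14.1% of all genes), and with the replicate block 5 were lower and 2 higher (22.8% and 21.9%). All 17 were lower in control 3 than in controls 1 and 2 (40.2% of all genes were), 4 of them at least 2-fold below the mean (3.17%). Fkbp4 and Cdc37l1 (log2 fold -0.40) were among the lower, together with Ahsa2, named after its value was seen (-1.29, edgeR adjusted p = 0.025), and Fkbp5, a glucocorticoid-responsive co-chaperone gene, was higher (0.98, edgeR adjusted p = 0.00164). Of 9 genes of HSP70 nucleotide exchange and cofactors, Bag4, Bag6 and Stub1 were lower and none was called higher by edgeR or limma-voom, with 1 higher at an unadjusted p under 0.05 and 1 higher by DESeq2. The counts moved with the fit: the replicate block gave 2 higher and 2 lower and ended the Bag4 call (edgeR adjusted p = 0.0516), and library-size scaling gave 4 higher and 0 lower. Stub1 encodes the ubiquitin ligase CHIP, and its log2 fold of -0.25 was 0.00 under library-size scaling. Of 12 further cytosolic J-domain genes, 3 were lower, among them Dnaja4 (-0.80) and Dnajb2 (-0.61), and Dnajc2 was higher (0.51). Of 7 further HSP70 and HSP110 genes, Hspa1l (-1.09) and Hspa4l (-0.54) were lower and Hspa12a (0.35) was higher, though not with the replicate block (edgeR adjusted p = 0.0596). Library-size scaling, under which 33% of all genes were called higher and 7.13% lower, turned these counts to 3 higher and 1 lower for the J-domain list and to 3 higher and 0 lower for the HSP70 and HSP110 list. With so few calls each, these 3 lists gave no direction that held under both scalings. Hspa1l was under 1.7 CPM in every library and shares windows with Hspa1a and Hspa1b.

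Small heat shock genes other than Hspb1 were called higher or not called. Of 9, 7 passed the low-count filter, 2 were higher, Cryaa (0.95) and Hspb7 (2.15, at most 1.042 CPM in any library), and 0 were lower in edgeR, DESeq2 and limma-voom (0 at an unadjusted p under 0.05). Over all genes 18% were called higher and 18.8% lower. The replicate block gave 4 higher and 0 lower, against 21.9% and 22.8% of all genes. Hspb3 was at 0 counts in all libraries. The TRiC and prefoldin list, which folds actin and tubulin, had 2 of 14 members higher, Pfdn4 (0.50) and Vbp1 (0.39), and Pfdn2 lower (-0.30), below the all-gene shares of 18% and 18.8%. All 14 were lower in control 3 than in controls 1 and 2, as were 40.2% of all genes. With the replicate block 7 of the 14 were higher and 2 lower, against 21.9% and 22.8% of all genes. With library-size scaling 7 were higher and 0 lower, against 33% and 7.13%. Without control 3, 0 were higher and 2 lower (2 higher at an unadjusted p under 0.05), against 14.1% and 16.2%.

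The heat shock factor genes themselves differed little, except Hsf4. Hsf1, the main heat shock factor gene, was at 23.88, 25.9 and 24.44 CPM in the controls and at 23.4, 26.32 and 21.21 CPM in the labelled knockouts (log2 fold -0.07, edgeR adjusted p = 0.642). Control 3 lay between the other controls, and the groups overlapped. Hsf2 (0.12), Hsbp1 (0.02) and Hsbp1l1 (-0.11) were not called. With library-size scaling, under which 33% of all genes were called higher, Hsf2 (0.39, edgeR adjusted p = 0.0256) and Hsbp1 (0.28, edgeR adjusted p = 0.0273) were higher. Hsf4 was at 8.97, 8.94 and 10.1 CPM in the controls and 3.76, 4.45 and 5.15 CPM in the labelled knockouts, with the groups separate and control 3 the highest library (log2 fold -1.07, edgeR adjusted p = 0.002). Transcript level does not measure HSF1 activity, which is set largely on the protein.

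The ER and mitochondrial relatives rose or were not called in the same libraries. Of 10, 7 were higher and 0 lower in edgeR, DESeq2 and limma-voom (0 lower at an unadjusted p under 0.05), against 18% of all genes called higher. Without control 3, 4 were higher (14.1% of all genes). Without both libraries numbered 3, 7 were higher and 2 lower, Hspd1 (-0.23) and Hspe1 (-0.38), against 27.7% of all genes called lower. Hspa5, the gene whose loss the label names, was at 1355, 1288 and 924.8 CPM in the controls and at 9262, 9180 and 3809 CPM in the libraries labelled knockout (log2 fold 2.64, edgeR adjusted p = 0.00208). Counts per gene do not separate the floxed exons, so they cannot check the deletion, and every direction here is between libraries as labelled. Hsp90b1, the HSP90 of the ER, rose by 2.51, Hyou1, the ER member of the HSP110 family, by 1.32, and Hspa9, the mitochondrial HSP70 gene, by 1.04. Dnajb9 (1.01), Dnajb11 (0.58) and Dnaja3 (0.46) were also higher. The calls of Dnajb9, Dnajb11 and Dnaja3 ended without control 3 (edgeR adjusted p = 0.0743, 0.0502 and 0.0902). Trap1, the mitochondrial HSP90 gene (-0.14), and Hspd1 (-0.14) and Hspe1 (-0.29), the mitochondrial chaperonin genes, were not called. Hspd1 was at 248.2, 261.2 and 123.4 CPM in the controls and Hspe1 at 119.7, 121.4 and 55.29 CPM, so both were more than 2-fold lower in control 3.

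**Figure D3:**
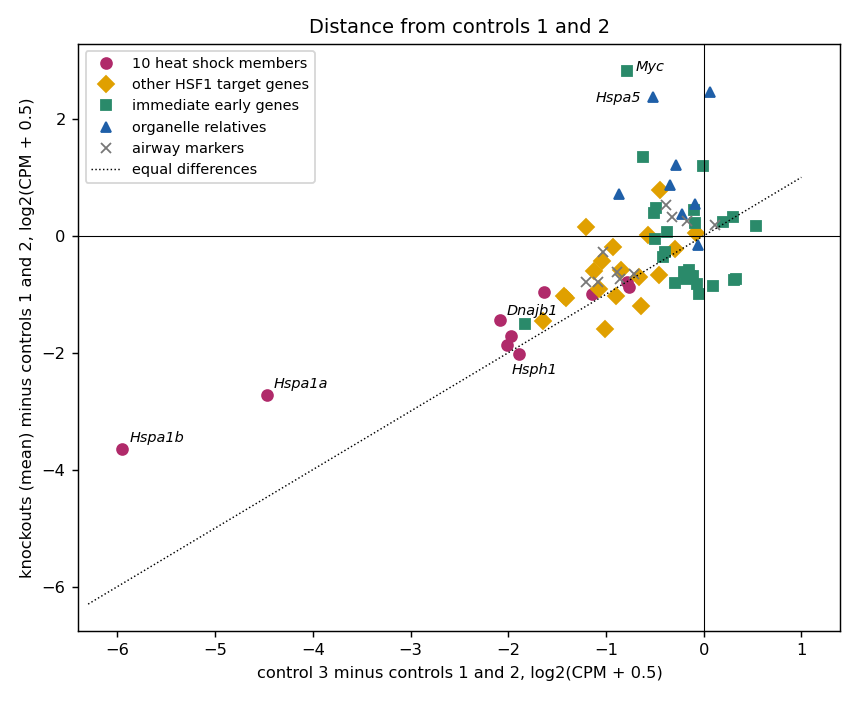
Each point is a gene, placed by its difference from the mean of controls 1 and 2 in control 3 (x axis) and in the mean of the 3 labelled knockouts (y axis), both on log2(CPM + 0.5); a gene on more than 1 list is drawn with the first in the legend. The 10 heat shock members lie to the lower left, from -5.95 and -3.64 for Hspa1b, while Hspa5 and Myc lie above 0 on the y axis.

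The genes outside the 10 whose levels were most like the mean of the members over the 6 libraries were Dedd2, Fxr1, Bag3, Ints8, Chordc1, Tbl2, Cacybp and Slc5a3. They were the 8 highest Pearson correlations, 0.999 to 0.99, among 9425 genes at or above the median level, and they were picked as the highest of many over only 6 libraries. Bag3 encodes a nucleotide exchange factor of HSP70, and Chordc1 and Cacybp encode HSP90 partners. Bag3 was at 136.1, 133.6 and 49.83 CPM in the controls and 65.82, 72.03 and 59.41 CPM in the labelled knockouts (log2 fold -0.70, edgeR adjusted p = 0.158). Chordc1 was at 131.5, 130.2 and 41.43 CPM in the controls and 47.16, 48.7 and 46.81 CPM in the labelled knockouts (-1.09, edgeR adjusted p = 0.068). Both had control 3 below every labelled knockout. The size of the change was not part of the choice: Tbl2 ran only from 32.15 to 34.93 CPM. The members themselves correlated with their mean at 0.92 (Dnajb4) to 0.989 (Dnajb1), which includes each gene in the mean.

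Immediate early genes, which many stimuli switch on within minutes, were as a sum only slightly lower in control 3 than in controls 1 and 2, although single members dropped further. Their summed level was 8832, 9578 and 8566 CPM in the controls and 6319, 6784 and 5473 CPM in the labelled knockouts, so control 3 stayed near the other controls and the groups were separate. The sum is weighted to abundant genes: 16 of the 26 were lower in control 3 than in controls 1 and 2 (40.2% of all genes were), and 1, Nr4a3, was at least 2-fold below their mean (3.17%). Nr4a3, named after its value was seen, stood at -1.82 and Myc at -0.79 in control 3 on log2(CPM + 0.5). Others were higher in control 3, though 0 of the 26 were at least 2-fold above the mean of controls 1 and 2. Egr1 was at 628.7, 735.2 and 845.4 CPM in controls 1, 2 and 3, and Nr4a1 at 156.2, 198.3 and 221.8 CPM. Both were also named after their values were seen. Of the 26, 11 were called lower in the labelled knockouts (18.8% of all genes) and 5 higher, near the 18% of all genes. Fosb was at 405.9, 479.8 and 428.2 CPM in the controls and 212.7, 243.8 and 207.9 CPM in the labelled knockouts (log2 fold -0.98, edgeR adjusted p = 0.00134). Jun fell by 0.90 on the log2 scale (edgeR adjusted p = 0.00247), and Myc rose by 3.21 (edgeR adjusted p = 0.00099).

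**Figure D4:**
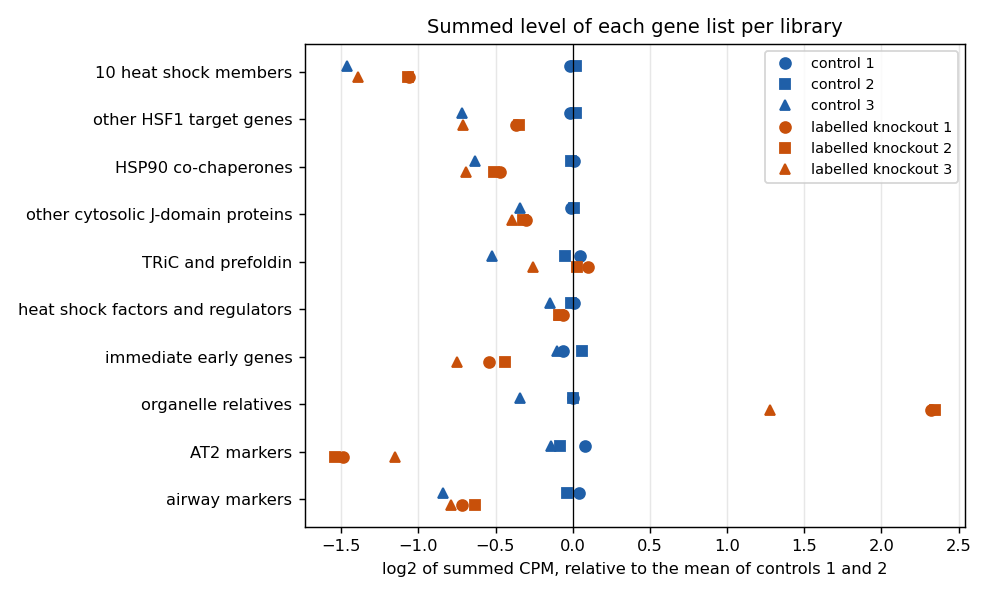
Log2 of the summed CPM of each gene list (x axis) relative to the mean of controls 1 and 2, for each library (blue control, orange labelled knockout, shape for the number). The 10 heat shock members sit at -1.46 in control 3 and -1.39 to -1.06 in the labelled knockouts, whereas immediate early genes sit at -0.10 in control 3.

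Markers of other cells moved with the libraries. The 10 airway markers summed to 56670 and 53960 CPM in controls 1 and 2, 30910 CPM in control 3 and 32050 to 35710 CPM in the labelled knockouts, with controls 1 and 2 highest and control 3 lowest as for the summed heat shock genes, mostly through the club cell gene Scgb1a1. Of the 10 airway markers, 3 were called higher and 0 lower, against 18% and 18.8% of all genes. Those 2 shares also stand beside the other counts from all 6 libraries in this paragraph. Without control 3, 1 airway marker was higher and 5 lower, against 14.1% and 16.2% of all genes. With all libraries 0 were lower at an unadjusted p under 0.05 or by DESeq2 or limma-voom. The 14 AT2 markers, all called lower in the labelled knockouts, summed to 154000 to 178400 CPM in the controls, control 3 lowest, and to 58150 to 76130 CPM in the labelled knockouts, so the labelled cell type was present in every library. It was not alone: Scgb1a1 was at 48330, 46150 and 26140 CPM in the controls, against 54840, 47650 and 43710 CPM for the AT2 gene Sftpc. In the labelled knockouts Scgb1a1 was above Sftpc, at 27830, 30130 and 26910 CPM against 15510, 14460 and 18610 CPM. Per kilobase of merged exons, Scgb1a1 was above Sftpc in every library. The controls held 102000, 96900 and 54900 CPM per kb of Scgb1a1 against 53000, 46100 and 42300 of Sftpc. The 14 fibroblast and smooth muscle markers, 13 called higher, summed to 238.6, 237 and 599.2 CPM in the controls and to 1271 to 1410 CPM in the labelled knockouts. Leukocyte markers, 15 of 16 with a row and 2 called higher, summed to 13.89 to 22.83 CPM in the controls, 16.83 and 17.91 CPM in labelled knockouts 1 and 2, and 130.4 CPM in labelled knockout 3, with Cd3e and Marco at 0 in at least 1 library. Endothelial markers (10, 1 called each way) summed to 464 to 504 CPM in the controls and 471.5 to 796.1 CPM in the labelled knockouts. AT1 markers (10, 1 higher and 5 lower) summed to 3098 to 3394 and 2026 to 2070 CPM, and erythroid markers (7, 1 lower) to 418.6 to 654.4 and 320.8 to 1355 CPM. With the replicate block, 3 AT1, 5 leukocyte and 2 endothelial markers were higher, and 5, 0 and 2 were lower, against 21.9% and 22.8% of all genes. The part of these cells in the heat shock result was not tested. Library totals ranged from 110770711 to 149520306 counts, with control 3 at 134215811, between controls 1 and 2.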

How the data were processed

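The authors deposited raw gene counts by symbol; per the submitters' processing notes the build was mm10 and edgeR 3.7 was used, and the aligner, counter, annotation and strand setting are not named in these sources. Counts of 2 were 1.63 to 1.76 times as common as counts of 1, as when both mates of a pair are counted, so counting error is larger than the counts imply. The fit used edgeR 4.0.16 in R 4.3.3 on all 18849 genes kept by filterByExpr, with TMM factors, robust dispersions, the quasi-likelihood F test and group as the only term. P-values were adjusted by Benjamini-Hochberg over all genes, and each SE was taken as log2 fold over root F. CPM were scaled by TMM, and CPM + 0.5 was used for logs of single libraries. Deviations from group means correlated at 0.174, 0.147 and 0.281 between same-numbered libraries, all over 0.1, so the replicate number was used as a block in an alternative. Between libraries of unlike number they correlated at 0.0897 (control 1 with labelled knockout 2) and 0.116 (control 2 with labelled knockout 1). Where either library was numbered 3 and the other was not, the values were -0.227 to -0.181, which sets number 3 apart from numbers 1 and 2. These values do not establish a pairing, and the labels do not say what the number marks. Replicates of a group differed by more than sampling noise (chi-square per gene 7.98 to 166 on halved counts). The value was 19.9 between controls 1 and 2, against 113 and 77.9 between each of them and control 3. It was 7.98 between labelled knockouts 1 and 2, against 166 and 136 between each of them and labelled knockout 3. In both groups the library numbered 3 thus stood apart, and the labels do not say why. Other alternatives were DESeq2 1.42.0, limma-voom (limma 3.58.1), other scalings and filters, and leaving out libraries.

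The 10 members, the gene lists and the tests were chosen with earlier results of these data known. Named genes are the members, the 3 lowest adjusted p-values of each pathway list, all heat shock factor and organelle genes, and the 8 most alike genes; any other is said to be chosen after its values were seen. Positions and merged exons come from GENCODE M21 and promoters from RefSeq (GRCm38.p6). Itgam had no row and was not analysed here.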

Additional observations from a re-analysis of the deposited data

How the results depend on the processing

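The log2 fold of all 10 members stayed below 0 in every alternative run, and 0 were called higher in any of them (0 at an unadjusted p under 0.05). The count called lower, 3 with all libraries, was 1 with scaling by library size, 7 with DESeq2, 1 with no filter on low counts and 10 without both libraries numbered 3. Leaving out 1 library gave 0 to 10: 0 without control 1, control 2, or labelled knockout 1 or 2 (2 or 3 lower at an unadjusted p under 0.05), 1 without labelled knockout 3 and 10 without control 3. With the replicate block it was 3 (Hsph1, Hsp90ab1 and Hspb1), and limma-voom, upper-quartile and RLE scaling gave 2. Over all genes 6938 were called, 8415 with the replicate block, 10581 without both libraries numbered 3 and 3706 to 8548 with 1 library left out. Scaling by library size moved the median of all genes by 0.26 (log2) and the share of calls that were higher from 48.9% to 82.2%; upper-quartile scaling gave 59.2%. With scaling by library size the log2 fold of Stub1 was 0.00, of the other sign before rounding. The cause of these changes was not tested. Hspa1a and Hspa1b summed, an alternative chosen after seeing the data, stood at -2.00 (log2) with the replicate block (adjusted p from edgeR 0.319).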

Other observations

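Genes outside the heat shock lists also dropped in control 3 relative to controls 1 and 2, and those named here were chosen after their values were seen. Clca1, a goblet cell gene, was at 132, 119.8 and 12.91 CPM in controls 1, 2 and 3 and at 35.49, 37.36 and 108.4 CPM in labelled knockouts 1, 2 and 3. Eno1b was at 19.85, 18.47 and 0.3752 CPM in controls 1, 2 and 3 and at 30.73, 31.29 and 13.18 CPM in labelled knockouts 1, 2 and 3. Retnla, a secreted protein gene, was at 321.1, 285.5 and 65.59 CPM in controls 1, 2 and 3 and at 1426, 1446 and 559.4 CPM in labelled knockouts 1, 2 and 3. These drops rest on 1 library and have no replicate check.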
